A study of Mus musculus with 10 samples.

Results

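The mouse miRNAs from miR-6895 to miR-7094 form a run of consecutive catalogue numbers, and nearly all of their hairpins lie in introns of protein-coding or other genes. Of the 264 rows of this number block in the table, 56 had a normalised signal above 0 in all 10 libraries. These 56 of the 1340 mature miRNAs listed are the members described here. They come from 53 hairpins, 38 as 3p arms and 18 as 5p arms. The members were chosen by number and by a signal above 0, so their being present in every library is the choice itself and not a result.

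A canonical miRNA hairpin is cut out of a longer transcript by the nuclease Drosha and then trimmed by Dicer. A mirtron skips the first cut: splicing releases a short intron, the lariat is opened, and the intron itself folds into the hairpin that Dicer receives. In a tailed mirtron only one end of the hairpin is a splice site, and the rest of the intron is left as a tail that has to be removed.

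The tissue was the RPE/choroid/sclera (the pigment epithelium with the vascular and outer coats of the eye). The mice were C57BL/6J, wild type, and aged postnatal day 34. One eye had carried a goggle with a -20 dioptre lens for 10 days from postnatal day 24, a treatment used to induce myopia, and the other eye had no lens. The labels give 5 left and 5 right eyes with the shared numbers 61, 64, 65, 66 and 68, but not which eye wore the lens, so the contrast is right against left eye. Nothing in the labels says that a number is 1 animal, and the spread between libraries may be partly technical.

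The deposited values are a normalised signal that summed to between 11878200 and 11879000 in each library. At ranks 1 to 100, values of equal rank had a median spread over the libraries of 0% of their mean. At the ranks of the members this spread was 9.50%. A value among the highest ranks therefore mostly reflects the rank of the miRNA in its library. Pigment epithelium miRNAs were abundant in every library, with a summed signal of miR-204-5p and miR-211-5p of 1959 to 1989 k (k for 1000 units of signal). As values of equal high rank are nearly shared by the libraries, this narrow range does not measure how equal the pigment epithelium content was. The right eye of number 68 stood apart in photoreceptor miRNAs, with a summed miR-182-5p, miR-183-5p and miR-96-5p of 1285 k. Left eyes had 243 to 449 k, the lowest right eye had 167 k, and none of the 3 was listed at 0. The neuron markers miR-124-3p and miR-9-5p also stood apart there, with a sum of 45.2 k against 24.5 k at most in the other 9 libraries. Marker sums of other cell types varied between libraries as well. Cornea and surface epithelium ran from 24.2 to 243 k, with 58.6 k in right eye 68. Striated muscle ran from 24.4 to 96.2 k, with 47.1 k in right eye 68. In bulk tissue, fewer cells of a type and less RNA per cell cannot be told apart. Between 235 and 307 rows were listed at 0 in a library. The read depth of the libraries is unknown.

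The sequences of the 10 members of highest mean are given here, apart from miR-6956-3p, which had none in RefSeq. They show the letters on which the 3p arms end, and miR-7018-3p, a member of low signal, is added for the seed it shares. RefSeq (GRCm38.p6) held a mature sequence for 48 of the 56 members. The lines below are written 5′ to 3′ with the seed, bases 2 to 8, in capitals.

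miR-6944-3p: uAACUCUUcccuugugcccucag

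miR-7068-3p: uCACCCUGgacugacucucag

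miR-7046-3p: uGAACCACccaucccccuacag

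miR-6937-5p: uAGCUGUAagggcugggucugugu

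miR-7015-3p: uCUCACUGuccucugcacuag

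miR-6988-3p: uGACCUCUguaucuccugccag

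miR-6899-3p: uUGUCCUUcugugucuucugcag

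miR-6911-3p: uCAAUCACacucuguccacag

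miR-6901-5p: uGCAGGAAugcagaggaccu

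miR-7018-3p: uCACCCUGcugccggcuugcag

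The seeds differed from one another. There were 47 distinct seeds among the 48 members with a sequence, and the one pair that shared a seed was miR-7068-3p and miR-7018-3p, shown above. Counting the 1135 rows of the table that had a sequence, 8 members shared a seed with another miRNA. Among these, miR-6932-3p shared its seed with miR-26a-2-3p and miR-26b-3p, and miR-6985-3p with miR-673-5p.

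The 3p arms looked like the end of an intron. The block is annotated mostly as mirtrons and tailed mirtrons. Intron ends in its arms and hairpins therefore describe that annotation and are no independent result. Of the 31 members that are 3p arms with a sequence, 29 ended in AG (93.5%, exact 95% interval 78.6 to 99.2%), the letters that close nearly all introns. The same ending was found in 45 of the 408 3p arms with a sequence outside the number block (11.03%), and in 71 of the 91 3p arms of the block that are not members (78.0%). Pyrimidines, C or U, made up a median of 71.4% of the bases of the 3p members, against 54.5% outside the block. In the 3p arms of the block that are not members the median was 72.7%. A run of pyrimidines before the final AG is the usual signal for the end of an intron.

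The 5p arms did not carry the start of an intron. None of the 17 members that are 5p arms with a sequence began with GU, the letters that open an intron, while 9 of 94 non-member 5p arms of the block did (9.57%) and 18 of 369 outside it (4.88%). By position, none of all 18 5p members began within 2 bases of the intron start, and their median distance to the 3′ end of the intron was 35.5 bases. G made up a median of 40.9% of the bases of the 5p members, against 28.6% of 5p arms outside the block. In the 5p arms of the block that are not members the median was 45.5%, so a high share of G is not particular to the members.

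The place of each member was then read from the gene annotation. The letters were not used, but place and letters describe the same intron ends and are not independent. By the deposited GRCm38 coordinates and the GENCODE M21 annotation of that build, all 56 members lay within an intron of a gene on the same strand, with 53 different hosts for the 53 hairpins, where an overlapping pair of genes counts as 1 host. Of the 38 members that are 3p arms, 36 ended exactly on the last base of the intron and all 38 within 2 bases of it. Of the 3p arms of the block that are not members, 91 of 101 ended within 2 bases of it (90.1%). For 3p arms outside the block, 31 of 482 ended within 2 bases of an intron end (6.43%). The members lay on 17 chromosomes, at most 6 on one (chromosomes 7 and 15). For 8 members, miR-7068-3p in Cherp among them, another transcript model of the host gene had an exon over the same bases.

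Hairpins showed where the other end lay. RefSeq held the hairpin of 41 of the 53. The 3′ end of the hairpin was the last base of an annotated intron in 37 of 41 (90.2%, exact 95% interval 76.9 to 97.3%). It was so in 108 of 115 other hairpins of the block (93.9%) and in 16 of 563 hairpins outside it (2.84%). The remaining 4 member hairpins, Mir6901, Mir6914, Mir6925 and Mir7010, reached 1 to 7 bases past the intron end into the next exon. Of the 41 hairpins, 4 were whole introns from first to last base, which is the plain mirtron form, and 33 filled only the 3′ end of a longer intron, which is the form of a mirtron with a tail on its 5′ side.

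**Figure D1:**
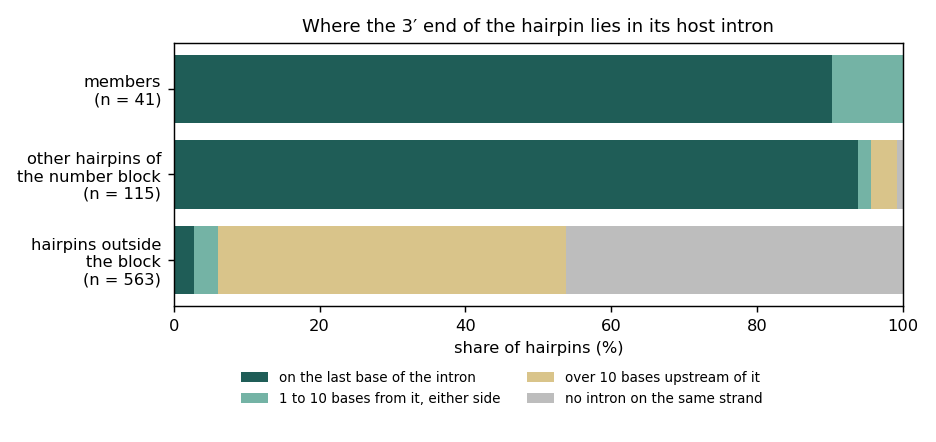
Share of hairpins, in percent, by the distance from the 3′ end of the hairpin to the 3′ end of the same-strand host intron in GENCODE M21, for the 41 member hairpins, the 115 other hairpins of the number block and the 563 hairpins outside it. The dark segment, an exact match to the last intron base, covers 90.2% of the members, 93.9% of the other block hairpins and 2.84% of the rest.

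The 4 whole-intron hairpins and 2 of the tailed form are printed to show the difference. Capitals mark hairpin ends that are intron ends, the first 2 and last 2 bases in the whole introns and only the last 2 in the tailed ones.

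Mir6944 (Dbn1, chr13:55477681-55477776, minus strand, whole intron of 96 bases): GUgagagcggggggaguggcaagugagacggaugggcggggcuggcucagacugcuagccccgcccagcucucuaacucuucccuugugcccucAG

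Mir7068 (Cherp, chr8:72470016-72470089, minus strand, whole intron of 74 bases): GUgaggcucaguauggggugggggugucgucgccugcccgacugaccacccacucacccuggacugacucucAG

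Mir7018 (Hspg2, chr4:137538286-137538370, plus strand, whole intron of 85 bases): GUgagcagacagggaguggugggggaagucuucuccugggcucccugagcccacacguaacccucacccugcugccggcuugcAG

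Mir6958 (Dennd6b, chr15:89185465-89185537, minus strand, whole intron of 73 bases): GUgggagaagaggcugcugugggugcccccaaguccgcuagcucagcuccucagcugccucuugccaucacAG

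Mir6937 (Adi1, chr12:28679325-28679389, plus strand, end of an intron of 1492 bases): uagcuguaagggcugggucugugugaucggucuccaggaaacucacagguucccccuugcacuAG

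Mir7083 (Dock6, chr9:21809941-21810000, minus strand, end of an intron of 1833 bases): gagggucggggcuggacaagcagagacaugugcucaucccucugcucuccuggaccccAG

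The introns were short in a minority of cases, so the name short-intron miRNAs holds only for some of the group. Taking for each of the 53 hairpins the host intron whose ends lie nearest, 17 introns had at most 100 bases and 23 had over 500, of which 16 had over 1000. The median was 239 bases. The shortest, of 73 bases, holds miR-6958-3p in Dennd6b, and the longest, of 36269 bases, carries miR-6899-3p at its 3′ end in Klf7, a gene for a zinc finger transcription factor.

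Signal was low throughout. Mean signal over the 10 libraries ran from 1.36 to 306, with a median of 7.15, against a median of 82.1 for the 705 miRNAs outside the block that were also above 0 in all libraries. The members together held 0.00930 to 0.0128% of the signal of a library. Of the 56, 26 had a mean of at least 10, the level from which differences were tested, and 3 a mean of at least 100. The other 208 rows of the block had means up to 4.49 and none reached 10.

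Tied values limit what can be said of the low members. In each library 31 to 39 of the 56 members had a value that another member also had. In the left eye of number 66, 12 members stood at exactly 2. Differences of a few units between members at this level are therefore steps of the normalised scale.

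The rule cuts through a continuum. Just inside it were miR-7004-3p, miR-7063-3p and miR-6960-5p, with means of 1.36, 2.07 and 4.14, and miR-7010-5p, with a mean of 5.46. These 4 were tied at a lowest value of 0.160 in the left eye of number 68. Just outside were miR-7093-3p (mean 4.49) and miR-6952-5p (mean 3.64), both listed at 0 only in the right eye of number 66, and miR-6908-3p (mean 3.58), listed at 0 only in the left eye of number 66. In all, 23 rows of the block were above 0 in 9 libraries.

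The top of the group was miR-6944-3p, from a whole intron of Dbn1, the gene of the actin-binding protein drebrin. Its signal was 337, 313, 330, 330 and 240 in the left eyes of numbers 61, 64, 65, 66 and 68 and 287, 366, 297, 344 and 219 in the right eyes in the same order. Both eyes of number 68 were the lowest of their side, and the sides overlapped. Its rank in the table was between 226 and 270.

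Next came miR-7068-3p, from the whole intron of Cherp, at 115, 137, 129, 124 and 134 in left and 144, 135, 134, 128 and 100 in right eyes. It was the steadiest of the 26 members with a mean of at least 10, with an SD of 0.15 on the log2 scale over the 10 libraries. The highest of its values was 1.44 times the lowest.

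The third was miR-7046-3p (chr7:24970010-24970031, minus strand), from the 3′ end of a 77-base intron of Rabac1, which encodes a membrane protein of the Golgi and endosomes. Left eyes had 95.7, 108, 104, 106 and 121, and right eyes 142, 128, 163, 165 and 114. The right eye was higher in numbers 61, 64, 65 and 66 and lower in number 68, and the sides overlapped in the range from 114 to 121.

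The highest 5p arm was miR-6937-5p (chr12:28679325-28679348, plus strand), in an intron of Adi1, an enzyme of methionine salvage. Left eyes had 128, 146, 67.9, 48.4 and 64.1 and right eyes 103, 100.2, 72.9, 84.4 and 74.04. Both eyes of numbers 61 and 64 lay above all eyes of the other numbers.

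The other members among the 10 highest had means between 33.7 and 47.9. They were miR-7015-3p in Smap2 (47.9 ± 9.63, SD, n = 10), miR-6988-3p in Syvn1 (45.2 ± 14.4), whose host encodes a ubiquitin ligase of the endoplasmic reticulum, and miR-6956-3p in Triobp (38.0 ± 8.06). They further included miR-6899-3p in Klf7 (34.5 ± 10.1), miR-6911-3p in Dazap1 (33.9 ± 4.14) and miR-6901-5p in Sned1 (33.7 ± 12.8). For miR-6988-3p the left eye of number 68 had the lowest value, 19.9, and the right eye of number 64 the highest, 64.7.

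**Figure D2:**
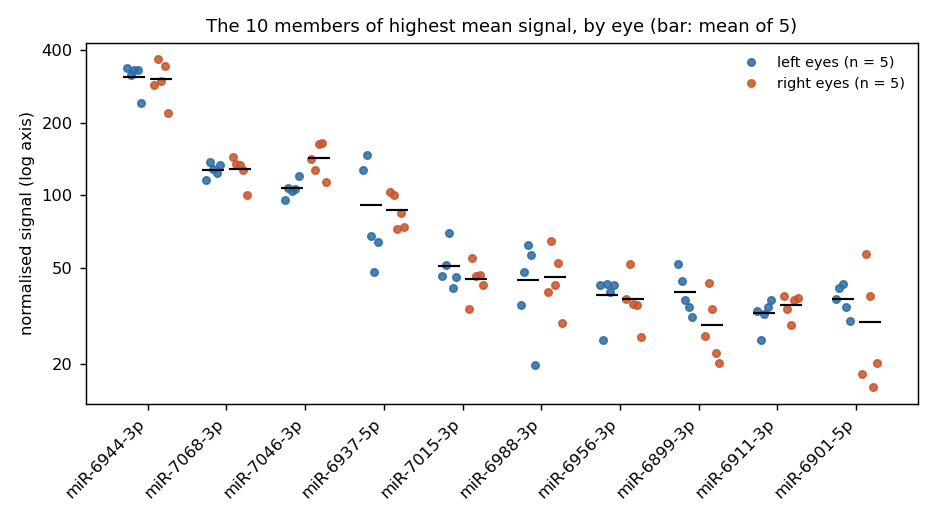
Normalised signal (log axis) of the 10 members of highest mean, with 1 point per library, left eyes in blue and right eyes in orange, in the order of numbers 61, 64, 65, 66 and 68 within each side, and a bar at the mean of 5. Left and right points overlap for each of the 10, and miR-6944-3p lies lowest in both eyes of number 68 (240 and 219).

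Level varied widely within one intron form. The 4 whole-intron hairpins held the 2 highest members, miR-6944-3p and miR-7068-3p, and also miR-7018-3p at 6.24 ± 4.06 (SD, n = 10) in Hspg2, the gene of the basement membrane proteoglycan perlecan, and miR-6958-3p at 2.56 ± 2.34. The higher arm had a median mean signal of 10.6 in the 17 hairpins of introns of at most 100 bases and of 7.56 in the other 36. These are descriptions of small sets, with no test.

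A list of 15 other rows served as reference, the better known splicing-derived miRNAs miR-877, miR-1224, miR-702, miR-1981 and miR-3102 and the Drosha-independent miR-320 and miR-484, which arise from short capped transcripts. Its highest rows, miR-320-3p at 12027 ± 1837 and miR-484 at 3158 ± 322 (SD, n = 10), lay above all members. Among its splicing-derived rows miR-1981-3p (336 ± 70.8) and miR-877-5p (312 ± 84.4) were close to miR-6944-3p, at 306 ± 46.7. At the low end, miR-1224-3p was above 0 in 7 libraries.

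Most member hairpins had both arms in the table, and the 3p arm was more often the higher one. For 36 of the 53, both arms were listed in the table, and the higher mean belonged to the 3p arm in 24 and to the 5p arm in 12. In 11 more only the 3p arm was listed and in 6 only the 5p arm. The share with a higher 3p arm was 66.7% of the 36, 61.6% of the 86 block hairpins with both arms and 46.8% of the 355 hairpins outside the block. As the members were chosen for signal in every library, an arm that is no member has a 0 in at least 1 library by that choice.

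The gap between arms was wide at the top of the group. Of 20 hairpins with an arm at a mean of at least 10 and both arms listed, 17 had arms over 10-fold apart. The same share was not computed for hairpins outside the block, so the gap cannot be called particular to the members. The largest ratio was for miR-6937, with 88.9 for the 5p and 0.470 for the 3p arm. For miR-7015 the values were 0.261 and 47.9, for miR-7068 they were 0.727 and 128, and for miR-7046 they were 1.52 and 125. Ratios with an arm under 1 rest on the lowest steps of the scale and are rough.

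**Figure D3:**
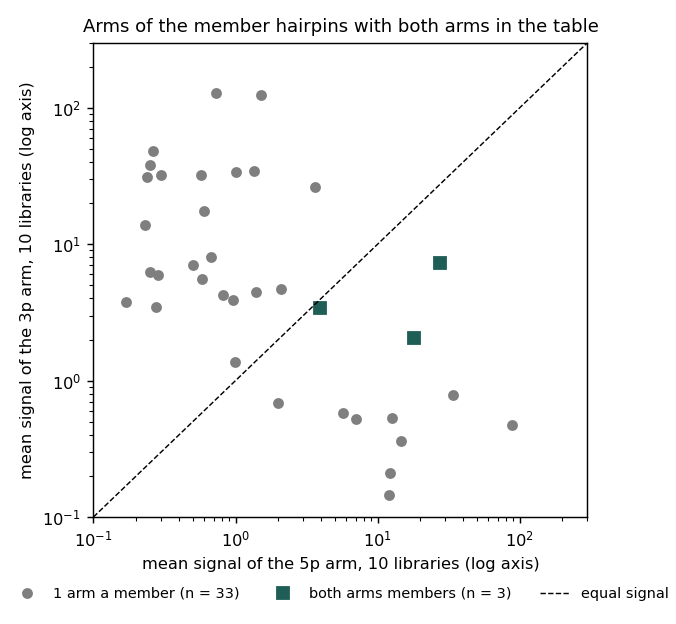
Mean signal of the 5p arm (x, log axis) against that of the 3p arm (y, log axis) over the 10 libraries for the 36 member hairpins with both arms in the table, with a dashed line at equal signal. Grey points are hairpins with 1 arm among the members and squares the 3 with both, and 24 points lie on the 3p side of the line and 12 on the 5p side.

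Both arms were members in 3 hairpins. In miR-7083, from an intron of Dock6, the 5p arm had 30.5, 39.5, 24.0, 22.4 and 27.4 in left and 36.1, 34.7, 30.5, 19.4 and 12.6 in right eyes, numbers in the same order. Its 3p arm had 5.1, 15.8, 4.8, 9.38 and 4.40 in left and 4.5, 7.499, 7.14, 11.2 and 3 in right eyes. The 5p arm was higher in 10 of 10 libraries, with a mean log2 ratio of 1.86 ± 0.63 (SD, n = 10).

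In miR-7063, from an intron of Ap2a2, a subunit of the clathrin adaptor, the 5p arm stood at 18.1 ± 5.56 and the 3p arm at 2.07 ± 1.22 (SD, n = 10). The 5p arm was again higher in 10 of 10 libraries, with a log2 ratio of 2.70 ± 0.62. In miR-6932, from an intron of Helz, the arms were close, at 3.92 ± 2.16 for 5p and 3.41 ± 1.97 for 3p, and the 5p arm was the higher in 4 of 10 libraries, the 3p arm in 3, with equal values in the remaining 3. Over the 10 libraries the 2 arms correlated at r = 0.38 for miR-7083, 0.41 for miR-7063 and -0.03 for miR-6932. These are descriptions, since the 10 libraries share 5 numbers.

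Arm use was compared between right and left eyes by limma on the log2 ratio of 5p to 3p, with the shared number as a block. No hairpin had 2 member arms both at a mean of at least 10, so none of the 3 was among the 158 hairpins tested at that level, of which 0% passed an adjusted p of 0.05. Among the 208 hairpins with both arms above 0 in all libraries none passed either, and 5 had an unadjusted p under 0.05. The right minus left difference in the log2 ratio was 0.61 ± 0.64 (SE) for miR-6932, -0.26 ± 0.16 for miR-7063 and -0.01 ± 0.24 for miR-7083, each with adjusted p of 0.980 or 0.986 in limma. The 95% interval for miR-6932, of half-width 1.58, included 0 and a rise of the ratio of over 2-fold.

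Right and left eyes were then compared for single members, in a limma fit of log2(signal + 1) over all 588 miRNAs with a mean of at least 10, again with the number as a block. None of the 26 members in the fit passed an adjusted p of 0.05, and 0% of all 588 did. Without adjustment, 2 of the 26 and 13 of the 588 had p under 0.05. The median log2 fold change, right over left, was 0.02 for the members, with 14 above and 12 below 0, and 0.02 for all 588. The 95% interval lay within a 2-fold change in either direction for 21 of the 26 members. It did so for 476 of the 562 other miRNAs tested. Among these, it did so for 249 of the 321 with a mean no higher than the highest member.

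The lowest unadjusted p among the members was that of miR-7046-3p, whose left eyes averaged 107 ± 8.94 and whose right eyes averaged 142 ± 22.3 (SD, n = 5 per side). Its log2 fold change was 0.40 ± 0.14 (SE), with an unadjusted p of 0.0269 and adjusted p = 0.967 in limma. The right eye was higher in 4 of 5 pairs. Without number 68, the only pair in which the left eye was higher, its log2 fold change was 0.52, adjusted p = 0.839 in limma. Leaving out that pair could only raise the estimate.

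One member had the same direction in all 5 pairs, 3.85% of 26, where 2.89% of all 588 did. This was miR-6899-3p, with 51.9, 44.3, 36.8, 34.7 and 31.6 in left and 26.2, 43.4, 33.9, 22.4 and 20.2 in right eyes. The difference was widest in number 61 and narrowest in number 64, where the eyes were nearly equal, and the sides overlapped. Its log2 fold change was -0.47 ± 0.19 (SE), adjusted p = 0.967 in limma.

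A similar difference, lower in 4 of 5 right eyes, was seen for miR-6901-5p, whose left eyes averaged 37.4 ± 5.23 and right eyes 29.9 ± 17.5 (SD, n = 5 per side). The log2 fold change was -0.47 ± 0.26 (SE), adjusted p = 0.967 in limma. Its right eyes ran from 16.1 in number 66 to 56.99 in number 64. In miR-6937-5p the left mean was the higher one (90.9 ± 43.3 against 86.9 ± 14.2), while the log2 fold change was 0.05 ± 0.20, as the log scale gives less weight to the 2 high left eyes. The 30 members with a mean under 10 were in a limma fit of all 761 miRNAs above 0 in all libraries. No miRNA there passed an adjusted p of 0.05 in limma. Without adjustment, 1 of the 56 members and 20 of the 761 had p under 0.05 in limma. In that fit 38 of 56 members were higher in right eyes, with a median log2 fold change of 0.11 against 0.02 for all 761. How many of the 761 were higher was not counted, and the lowest values are tied steps.

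**Figure D4:**
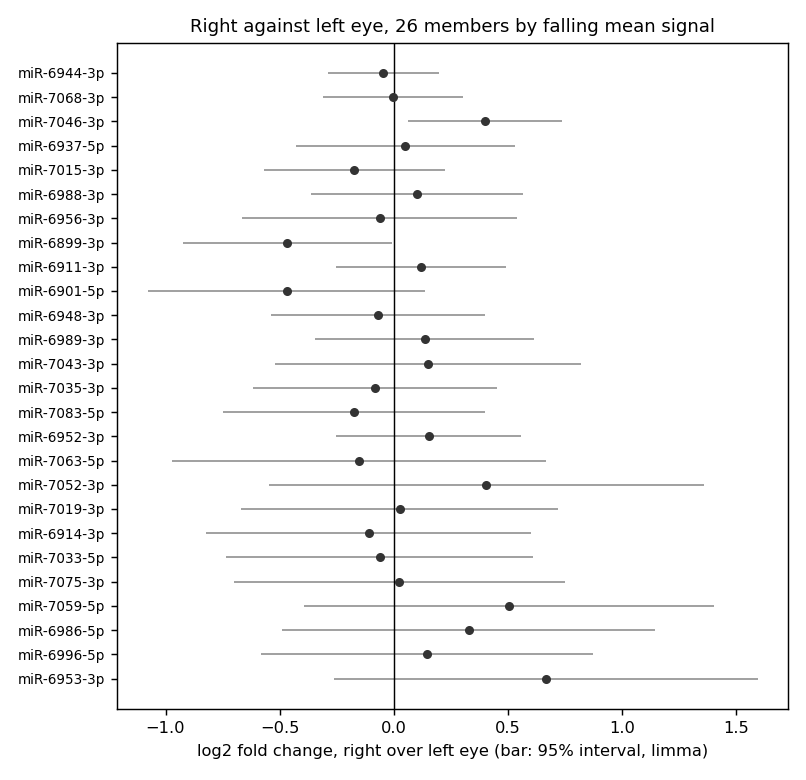
Log2 fold change, right over left eye, of the 26 members with a mean signal of at least 10, ordered by falling mean, with bars for the 95% interval from limma before any adjustment. The intervals of 24 members include 0, and those of miR-7046-3p (0.40) and miR-6899-3p (-0.47) do not, while no adjusted p is under 0.967.

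In the reference list, as in the members, no row passed. Of its 10 rows tested none passed in limma, 4 were above and 6 below 0, and the median log2 fold change was -0.04. The highest row, miR-320-3p, had a log2 fold change of -0.13 ± 0.11 (SE). One row, miR-877-3p, was higher in the right eye in 5 of 5 pairs, with left eyes at 69.0 ± 13.1 and right eyes at 92.3 ± 30.7 (SD, n = 5 per side). Its log2 fold change was 0.37 ± 0.14 (SE), with an unadjusted p of 0.0378 and adjusted p = 0.967 in limma.

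Spread over the 10 libraries was like that of other tested miRNAs up to the level of the highest member. The SD of log2(signal + 1) had a median of 0.41 in the 26 members, and of 0.41 in the 321 other tested miRNAs with a mean no higher than the highest member. The 2 sets were not matched in level, with a median mean signal of 29.8 in the members and 47.9 in the 321. Across all 562 other miRNAs tested it was 0.33. The steadiest members were miR-7068-3p (0.15), miR-6952-3p (0.17) and miR-6911-3p (0.18), and the most variable were miR-6986-5p (0.73), miR-7052-3p (0.68) and miR-7059-5p (0.68). For miR-6986-5p, in an intron of Rce1, left eyes had 24.8, 10.5, 9.55, 4.40 and 6.42 and right eyes 19.4, 18.8, 7.14, 12.9 and 7.499. As with miR-6937-5p, both eyes of number 61 were high.

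The summed signal of the members averaged 1324 ± 97.1 over the left eyes and 1370 ± 160 over the right eyes (SD, n = 5 per side). It was higher in the right eye of 3 of 5 pairs. The highest library, the right eye of number 64, had 1526, which is 1.38 times the 1105 of the lowest, the right eye of number 68. Without number 68 the means were 1354 and 1436. The 4 highest members made up 45.8 to 49.9% of the sum.

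Most pairs of members were weakly correlated. Over the 10 libraries the median Pearson correlation of the 1537 pairs of members from different hairpins was 0.05, with quartiles of -0.20 and 0.29 (Spearman median 0.04). For the 705 other miRNAs above 0 in all libraries the median was 0.00, with quartiles of -0.30 and 0.31. Correlations over 0.5 made up 9.89% of the member pairs and 12.6% of the other pairs, and those under -0.5 made up 5.53 and 12.0%. The 705 were higher in level, with a median mean signal of 82.1 against 7.15. In the 26 members with a mean of at least 10 the median was 0.04, with 8.92% of pairs over 0.5 and 5.54% under -0.5. In the 321 other tested miRNAs with a mean no higher than the highest member these shares were 11.1 and 11.3%. Members share their libraries, the normalisation and tied low steps, so these are descriptions with no test.

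The closest pairs were few among many. The highest correlations were between miR-6971-3p and miR-7052-3p (r = 0.87, rho = 0.84), miR-6899-3p and miR-6901-5p (0.86, 0.78), miR-6901-5p and miR-6997-5p (0.85, 0.81), miR-6916-5p and miR-6996-5p (0.84, 0.78), and miR-6944-3p and miR-6988-3p (0.82, 0.74). The first of these rests in part on the right eye of number 66, with 42.5 for miR-7052-3p and 11.2 for miR-6971-3p, each the highest of its row. In the pair of miR-6899-3p and miR-6901-5p, both on chromosome 1 but in Klf7 and Sned1, right eyes 61, 66 and 68 were the 3 lowest libraries of both. The lowest correlation among all 1537 pairs was -0.83.

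Libraries differed in how many members were high. In the right eye of number 68, 6 of the 26 members lay above their own mean and the median z-score was -0.59, the lowest of the 10 libraries. In the right eye of number 64, 18 of 26 lay above, with a median z-score of 0.54, the highest. Number 68 right is also the library with the high photoreceptor (1285 k) and neuron (45.2 k) miRNA signal. It had the fewest rows at 0, with 235, but left eye 68 was nearly equal, with 236. The part of the marker signal in the low member values was not tested. Without right eye 68 the median pairwise correlation of the members was 0.04.

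**Figure D5:**
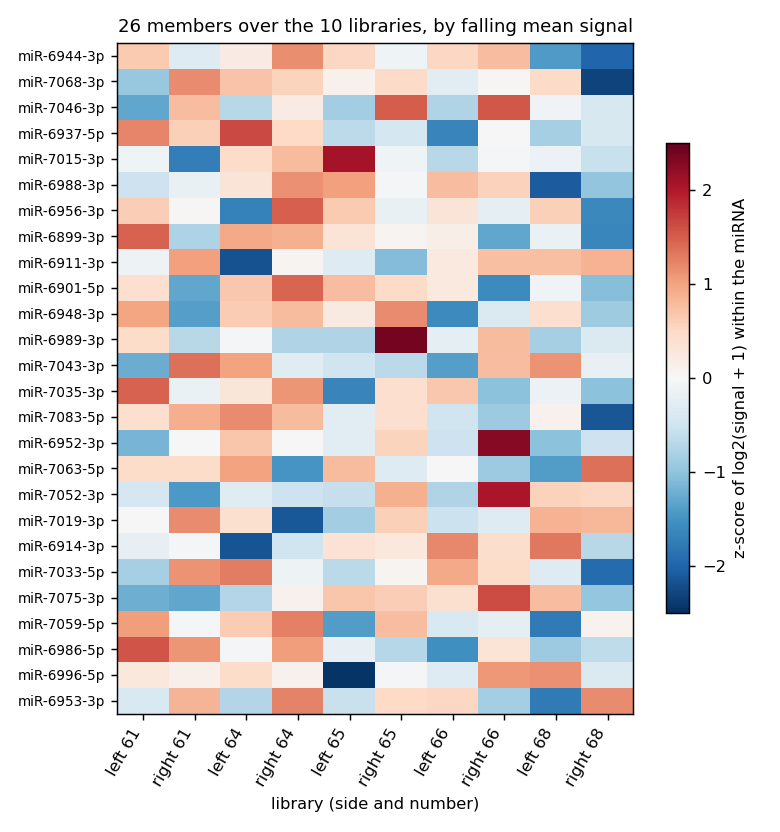
Z-score of log2(signal + 1) within each of the 26 members with a mean of at least 10 (rows, by falling mean) in the 10 libraries (columns, by number and side), red above and blue below the mean of the row. In right eye 68, 6 of 26 members lie above their mean, the fewest of any library, and in right eye 64, 18 of 26 do, the most.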

How the data were processed

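The authors deposited 1 table with a normalised signal per mature miRNA and library, with GRCm38 (mm10), Bowtie and Partek named in the submitters' processing notes; their versions and the normalisation method are not given in the sources used here. Of the signal values above 0, 7.31% are whole within 0.001, so count models were not used. Libraries were made with a TruSeq small RNA kit, per the labels' protocols, which speak of retinae although the samples' tissue is given as RPE/choroid/sclera. The coordinates deposited by the authors start at the first base and their stop is 1 past the last base (1133 of 1142 rows matched to RefSeq), so 1 was taken off.

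Members were found by number and signal. Values were analysed as log2(signal + 1) in limma 3.58.1 (R 4.3.3) with a mean-variance trend, a mean of at least 10, a block for the number, and p-values (two-sided) adjusted by Benjamini-Hochberg over all miRNAs tested. The block follows the protocol's contralateral eye. After the mean of each side was taken off, left and right eyes of one number correlated at 0.12, 0.45, 0.01, -0.13 and 0.28 across the 588 miRNAs, so the data do not establish the pairing. The fit was tested on simulated data. Introns came from GENCODE M21, without miRNA genes, allowing a hairpin an overhang of 10 bases. Among introns that hold a miRNA, the one with the nearest 3′ end and then the nearest 5′ end was used, for all miRNAs alike. Exact binomial intervals cover counting only. Named miRNAs are the 10 highest members, hairpins with 2 member arms, members of one direction in 5 pairs, the 3 largest and 3 smallest SDs, the 5 highest correlations, the 3 rows on each side of the rule and the 2 highest of the reference list. Others named were chosen after their values were seen. The members and lists were chosen with earlier results of these data known.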

Additional observations from a re-analysis of the deposited data

Results flagged for a closer look

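In 2 of 54 checks, of the 26 members with a mean signal of at least 10 and of their sum on each side, a single eye was separated from the remaining 4 by a gap above 0.71 of the range in log2 signal (Dixon's ratio). Chance flags about 1 in 20 groups. Left eye 68 was apart in miR-6944-3p, with 240 against 313 to 337 in the other left eyes. Left eye 64 was apart in miR-6956-3p, with 25.4 against 40.0 to 43.1 in the other left eyes.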

How the results depend on the processing

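No miRNA and no member passed the adjusted threshold in right against left eyes in limma under any of the 14 alternatives, which were no replicate block, other pseudocounts, filters, trend or robust settings, and leaving out each number or right eye 68. The median log2 fold change of the 26 members tested was 0.02 with no replicate block as well. It was -0.02 to 0.10 when a number was left out. Without the filter it was 0.11, but that fit held all 56 members, a different set. In the arm ratio, 1 of 158 hairpins passed without number 61, and it was no member hairpin. With no replicate block 0 of 158 passed and 1 had an unadjusted p under 0.05. Of 17 named members with a mean of at least 10, 9 kept their direction under all alternatives, miR-7046-3p and miR-6899-3p among them. The other 8 changed sign with 1 number or library left out. Their log2 fold changes then ran from -0.14 to 0.20 for miR-6937-5p, -0.11 to 0.000334 for miR-6944-3p, -0.33 to 0.10 for miR-6956-3p, -0.0128 to 0.26 for miR-6988-3p, -0.0608 to 0.33 for miR-6996-5p, -0.50 to 0.0838 for miR-7063-5p, -0.0838 to 0.10 for miR-7068-3p and -0.30 to 0.0470 for miR-7083-5p. The median pairwise correlation was 0.02 to 0.08 with a number left out and 0.02 for deviations from the mean of each number. A rule of above 10 in all libraries leaves 17 members. Of the 36 hairpins with both arms listed, an alternative chosen after seeing the data, the 5p arm was the higher in 12, against 3 of 3 with both arms among the members. Depth is unknown, and the lowest signals are tied steps.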
